A study of Solanum lycopersicum with 12 samples.

Results

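The genes described here are those of the tomato stem surface and its volatiles whose deposited annotation names a lipid transfer protein, ECERIFERUM, a 3-ketoacyl-CoA synthase, the GDSL esterase/lipase family, a terpene synthase or cyclase, or nerylneryl diphosphate synthase. They were found by searching the protein and InterPro names for these words, and 79 of 6120 genes matched. Of these, 30 were lipid transfer genes, 11 wax genes, 28 GDSL genes and 10 terpene genes. All plants were the tomato cultivar Ailsa Craig, grown under 16 h of light and 8 h of dark at about 28 °C. Weighted plants carried a wooden clamp of 3 g at the top of a stem 4.5 to 5 cm tall for 48 h, and control plants carried none. Whole stems gave RNA for 3 libraries each of weighted and control plants at 6 h after the start of the load, and for 3 libraries each of weighted and control plants 10 days after its end. The first time follows the study's design text, whereas the labels give it as hours after treatment. The labels file both times under a tag named batch, so plant age, collection and batch cannot be told apart between them.

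The aerial surface of a plant is sealed by a cuticle, a polyester of cutin filled and covered with waxes. Wax chains are lengthened by 3-ketoacyl-CoA synthases, which condense the growing chain with malonyl-CoA, and in Arabidopsis ECERIFERUM 1 and ECERIFERUM 3 act together to turn them into alkanes. Non-specific lipid transfer proteins are small secreted proteins held by disulfide bridges that bind lipids in a cavity, and GDSL enzymes cleave or transfer acyl groups, with a tomato member that polymerises cutin. Terpene synthases make the volatile terpenes of tomato stem and leaf glands, some from the cis-configured neryl diphosphate, and related enzymes open the routes to gibberellins and to sterols and triterpenoids.

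Expression was deposited as FPKM, fragments per kilobase of transcript scaled to library size, in 1 table per time, each with all 12 libraries. The table for 6 h held 76 of the members, the table for 10 days held 7, and 4 were in both. No lipid transfer gene and no wax gene was in the 10 day table. The tables hold genes that the authors had chosen for differing between weighted and control stems at that time, so a call within a table at its own time was fixed by that choice. Differences are given on the log2(FPKM + 1) scale with the standard error of the limma fit, and a gene was called when its Benjamini-Hochberg adjusted p over all tested genes of the table was under 0.05. Genes were tested when at least 3 libraries of the comparison reached 1 FPKM. Replicate libraries correlated at 0.991 to 0.993 in weighted stems at 6 h and 0.986 to 0.992 in control stems at 6 h. The range was 0.982 to 0.998 in weighted stems at 10 days and 0.956 to 0.984 in control stems at 10 days. Control replicate 1 at 10 days stood apart for the members, with a value over double the next in 10 of 56 members with a mean of at least 2 FPKM. Weighted replicate 3 at 10 days did so in 7 of 58 members. On the low side, control replicate 2 at 10 days was the lowest of its group in 29 of the 56 members. In 8 of the 56 the next value was over 2 times its own, and for weighted replicate 3 at 10 days this held in 4 of 58. Read depth is unknown.

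In stems under load at 6 h, 32 of the 70 tested members were higher and 38 lower than in control stems, all of them called, against a background of 99.3% of the 5028 genes tested. Of all tested genes 47.9% were called higher and 51.4% lower. The direction differed between the kinds of member. Of 10 wax genes 9 rose, of 7 terpene genes in the 6 h table all fell, and the lipid transfer genes divided into 14 that rose and 15 that fell. Of 24 GDSL genes 9 rose and 15 fell. The median log2 difference was 0.54 for wax genes, -0.31 for lipid transfer genes, -0.50 for GDSL genes and -0.91 for terpene genes, beside -0.27 for all tested genes. Differences of at least 1 were found in 16 of 29 lipid transfer genes (55.2%), against 14.4% of all tested genes called with a difference of that size. These shares are descriptions of genes already chosen for differing. With the spread estimated from all 12 libraries 26 members were called higher and 30 lower. The calls of 11 genes singled out by the naming rule or class ended in that fit, among them the DIR1-related Solyc01g066910.3 (adjusted p = 0.203) and Solyc01g109390.3 (adjusted p = 0.245), Solyc12g017460.1 (adjusted p = 0.0651) and Solyc08g074480.1 (adjusted p = 0.503). The plot of weight effects shows the spread of each group at both times.

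**Figure D1:**
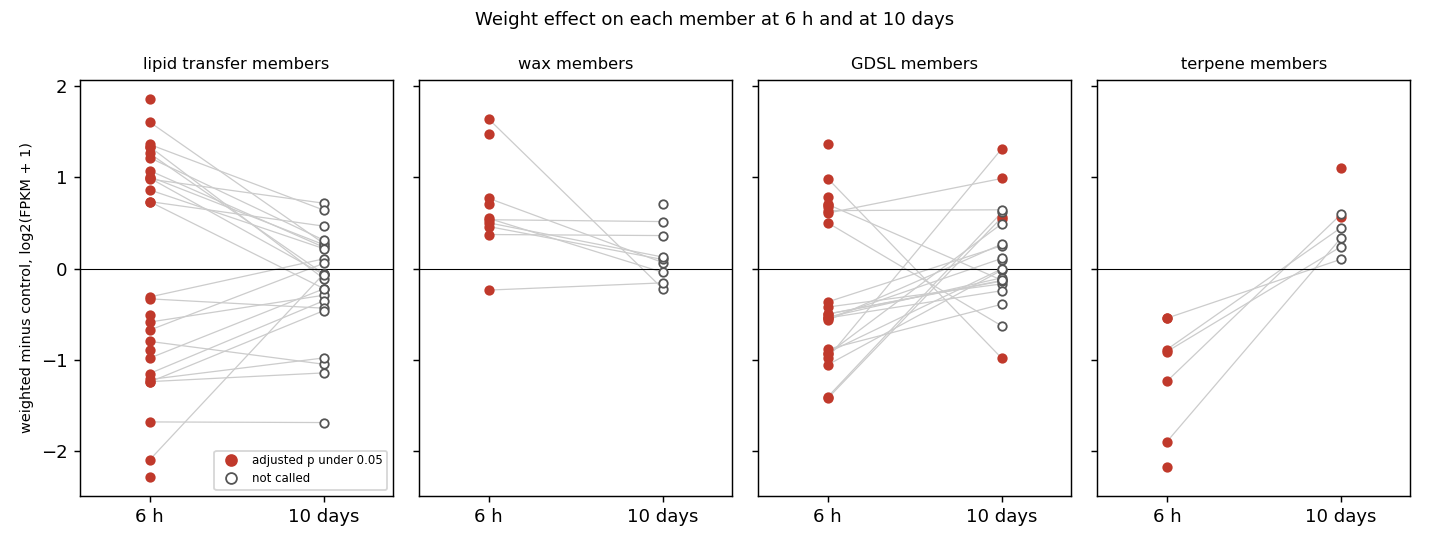
Difference between weighted and control stems (log2(FPKM + 1) scale, y axis) for each tested member at 6 h and at 10 days (x axis), by kind of gene, with filled points called by limma at adjusted p under 0.05, open points not called and grey lines joining the same gene. At 6 h all 7 terpene genes of the 6 h table lie below 0 and 9 of 10 wax genes above it. Filled points at 10 days could occur only among GDSL and terpene genes, the only kinds in the 10 day table. The other points at 10 days come from the fit over the 6 h table, where 0 of 4751 genes were called.

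Among the lipid transfer genes the 3 type 2 non-specific lipid transfer proteins all rose at 6 h. Solyc03g119210.1, the most abundant of them, had 1411, 1119 and 1633 FPKM in weighted stems, against 471, 367 and 526 FPKM in control stems. Every weighted library was above every control library, a ratio of means of 3.05. The log2 difference was 1.61 ± 0.18 (SE, limma adjusted p = 0.00057). Solyc06g069070.1 had 85.2, 97.7 and 94.8 FPKM in weighted stems, against 37.8, 44.2 and 27.9 FPKM in control stems, a log2 difference of 1.34 ± 0.16 (adjusted p = 0.000807). The third, Solyc05g008895.1, had a log2 difference of 0.73 ± 0.15 (adjusted p = 0.00397). The digits of Solyc03g119210.1 and Solyc06g069070.1 were among those regrouped when the damaged 6 h table was read, so their single values rest on that reading.

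The 3 genes related to DIR1, a lipid transfer protein that in Arabidopsis is needed for systemic acquired resistance, all fell at 6 h. Solyc01g066910.3 had 22.9, 16.8 and 10.9 FPKM in weighted stems, against 48.0, 93.5 and 34.6 FPKM in control stems. The groups did not overlap, and the log2 difference was -1.68 ± 0.38 (adjusted p = 0.00604). Solyc03g121900.1, annotated as DIR1 itself, had 48.3, 63.0 and 35.7 FPKM in weighted stems, against 73.0, 100.2 and 80.2 FPKM in control stems. Its log2 difference was -0.80 ± 0.21 (adjusted p = 0.00989), and that of Solyc01g109390.3 was -1.24 ± 0.26 (adjusted p = 0.00443). Of the lipid transfer genes in other classes, 5 of the 8 named non-specific lipid transfer proteins or carrying a Par allergen domain rose and 3 fell, and 3 of the 6 with another lipid transfer domain rose and 3 fell.

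Proteins with the hydrophobic seed domain, a form of the same fold found in hybrid proline-rich cell wall proteins, held both the largest increase and the largest decrease among lipid transfer genes. Of 9 tested, 3 rose and 6 fell. Solyc08g005960.2 had 412, 454 and 405 FPKM in weighted stems, against 132, 63.3 and 185 FPKM in control stems, with a log2 difference of 1.86 ± 0.34 (adjusted p = 0.00301). Solyc03g083998.1, named NT16 polypeptide, had 1.63, 0.44 and 1.57 FPKM in weighted stems, against 8.64, 10.96 and 8.71 FPKM in control stems. All weighted libraries of both genes lay outside the control range, in opposite directions. The log2 difference of Solyc03g083998.1 was -2.28 ± 0.24 (adjusted p = 0.000498), and that of its neighbour by identifier, Solyc03g083996.1 (QLTG-3-1), was -2.10 ± 0.20 (adjusted p = 0.000399). Genes with neighbouring identifiers may be similar copies that share reads, so their single values are uncertain.

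The most abundant member of all was also of this class. Solyc08g074480.1 had 3127, 3774 and 3125 FPKM in weighted stems at 6 h, against 4197, 4447 and 3934 FPKM in control stems. The groups did not overlap and the log2 difference was -0.33 ± 0.11 (adjusted p = 0.0206), but it turned to 0.16 (adjusted p = 0.27) under quantile normalization. The call was also lost with median-ratio scaling (-0.26, adjusted p = 0.0595). It ended as well without control replicate 1 (adjusted p = 0.0514), control replicate 2 (adjusted p = 0.0608), weighted replicate 1 (adjusted p = 0.0762) or weighted replicate 3 (adjusted p = 0.067). Because of this gene, the summed level of the 30 lipid transfer genes was only slightly apart, 7327 to 7955 FPKM in weighted stems, against 6765 to 7106 FPKM in control stems. Without it the other 29 summed to 4181 to 4712 FPKM in weighted stems, against 2569 to 2863 FPKM in control stems. The digits of Solyc08g074480.1 were also regrouped when the damaged 6 h table was read. Its single values and the sum over the 30 genes therefore rest on that reading.

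**Figure D2:**
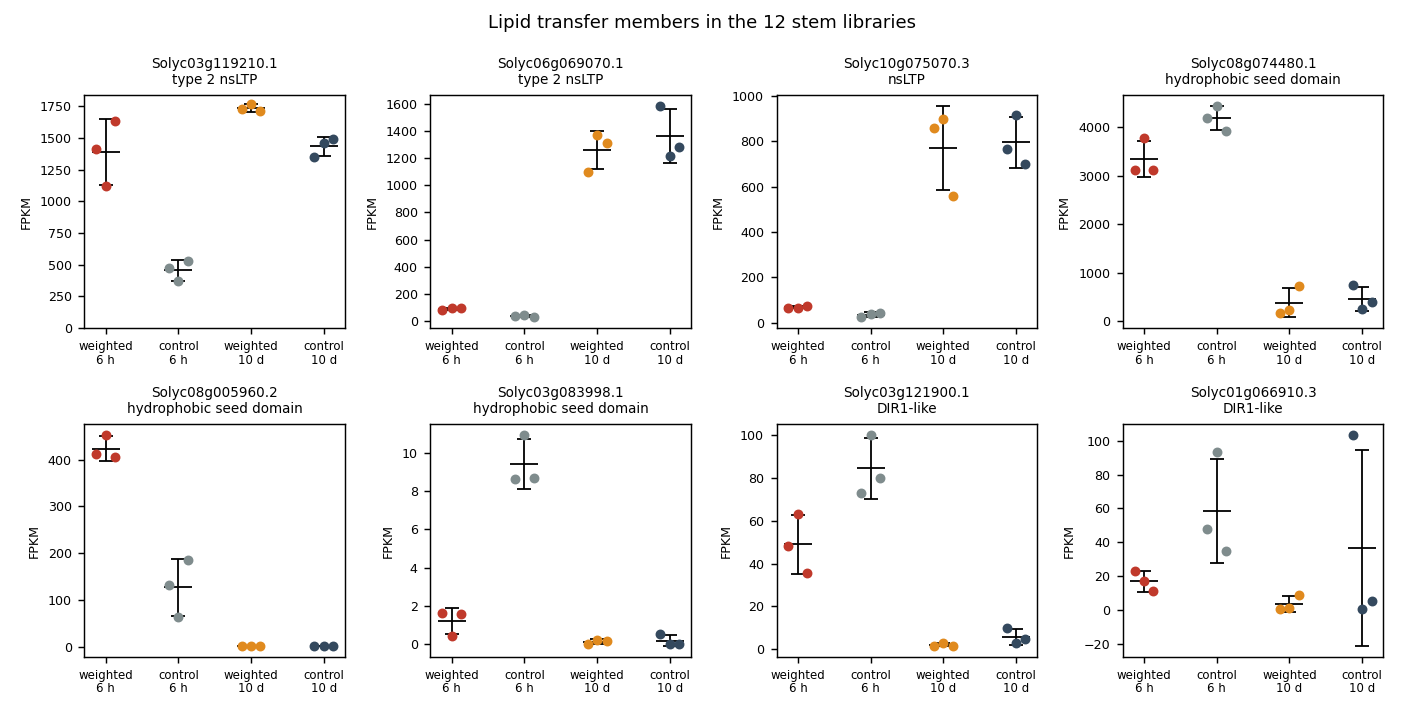
FPKM (y axis, linear) of 8 lipid transfer genes in each library of weighted and control stems at 6 h and 10 days (x axis), with points for libraries and bars for the mean and SD of 3. Solyc03g119210.1 and Solyc08g005960.2 are higher in weighted than in control stems at 6 h, the DIR1-related genes are lower, and Solyc01g066910.3 shows 1 control library at 104 FPKM at 10 days.

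The wax genes rose together at 6 h apart from 1. Solyc01g088400.4, ECERIFERUM 1-like and so related to the Arabidopsis alkane-forming protein, had 16.0, 15.4 and 14.7 FPKM in weighted stems, against 4.19, 3.37 and 5.38 FPKM in control stems. The groups were far apart, with a ratio of means of 3.56 and a log2 difference of 1.64 ± 0.15 (adjusted p = 0.000317). Its partner in Arabidopsis, ECERIFERUM 3, is represented by Solyc03g117800.4, which had 0.62, 0.97 and 0.65 FPKM in weighted stems, against 0.25, 0.14 and 0.29 FPKM in control stems. That gene missed the filter on low values at 6 h and was not tested there.

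Of the 9 genes for 3-ketoacyl-CoA synthases 8 rose at 6 h and 1 fell. With the spread from all 12 libraries 4 of the 8 lost their call, with adjusted p of 0.129 for Solyc02g085870.3, 0.279 for Solyc05g013220.2, 0.0835 for Solyc08g067260.4 and 0.119 for Solyc09g083050.3. The widest difference was in a gene hardly expressed in control stems. Solyc03g078330.1 had 2.80, 1.89 and 2.49 FPKM in weighted stems, against 0.11, 0.11 and 0.45 FPKM in control stems, a log2 difference of 1.47 ± 0.16 (adjusted p = 0.000518). Solyc08g067410.2 had 41.0, 19.4 and 31.5 FPKM in weighted stems, against 18.2, 18.2 and 14.2 FPKM in control stems. The groups did not overlap, although the lowest weighted library was close to the control libraries, and the log2 difference was 0.77 ± 0.25 (adjusted p = 0.02). Leaving out control replicate 3, weighted replicate 1 or weighted replicate 3 ended this call, with adjusted p of 0.0647, 0.0532 and 0.0563. The other 6 that rose had smaller log2 differences, among them Solyc11g072980.1 with 0.70 ± 0.11 (adjusted p = 0.00193) and Solyc02g085870.3 with 0.37 ± 0.10 (adjusted p = 0.0115).

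The exception was the most abundant wax gene. Solyc04g080450.1 had 52.7, 54.8 and 53.7 FPKM in weighted stems, against 61.0, 67.4 and 62.1 FPKM in control stems. The groups did not overlap and the log2 difference was -0.24 ± 0.08 (adjusted p = 0.0228). The call was lost with median-ratio scaling (-0.16, adjusted p = 0.132), with the replicate number as a block (adjusted p = 0.0685) and without control replicate 2 (-0.19, adjusted p = 0.0809), weighted replicate 1 (adjusted p = 0.0734) or weighted replicate 3 (adjusted p = 0.0606). Summed over the 11 wax genes, the level was 179 to 199 FPKM in weighted stems, against 137 to 154 FPKM in control stems.

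**Figure D3:**
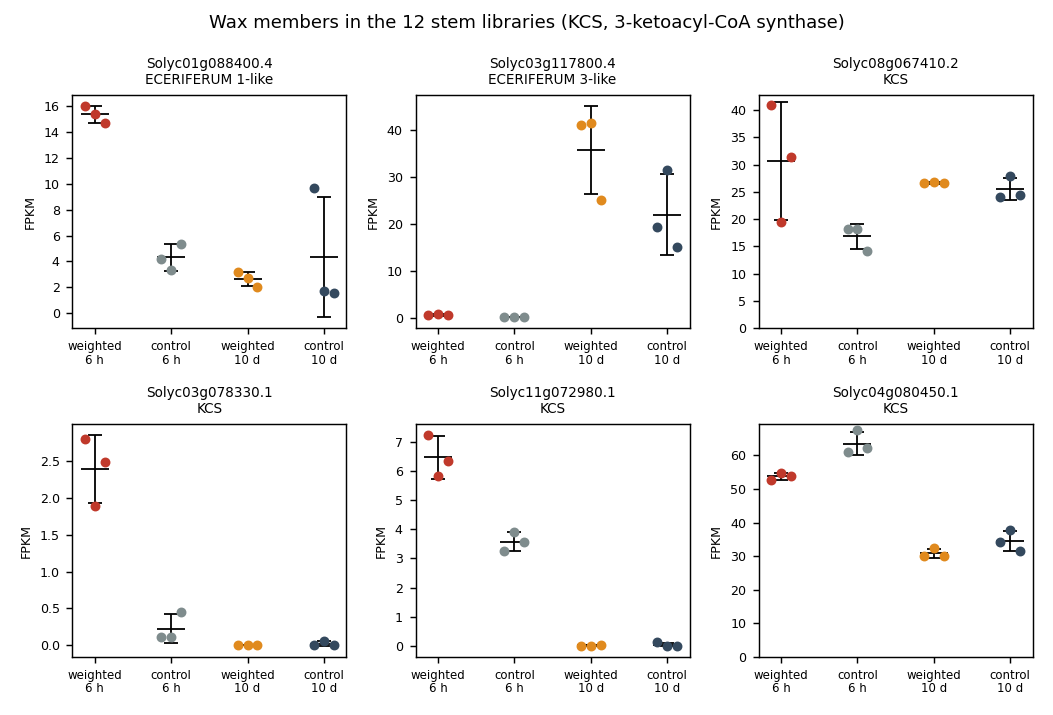
FPKM (y axis, linear) of 6 wax genes in each library of weighted and control stems at 6 h and 10 days (x axis), with points for libraries and bars for the mean and SD of 3. Solyc01g088400.4 and Solyc03g078330.1 are high in the weighted stems at 6 h, and Solyc03g117800.4 reaches 15.2 to 41.5 FPKM only in the libraries at 10 days.

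The GDSL genes had no shared direction at 6 h. The identifiers Solyc02g071610.3, Solyc02g071620.3, Solyc02g071700.3, Solyc02g071710.3 and Solyc02g071720.2 lie close together in number, and the first pair rose while the other 3 fell. Solyc02g071620.3, named GDSL-lipase 1, had 139, 185 and 155 FPKM in weighted stems, against 78.2, 65.6 and 97.6 FPKM in control stems. Solyc02g071700.3 had 132, 149 and 191 FPKM in weighted stems, against 394, 479 and 385 FPKM in control stems. Neither gene's groups overlapped, and the log2 differences were 0.99 ± 0.17 (adjusted p = 0.00219) for Solyc02g071620.3 and -1.42 ± 0.15 (adjusted p = 0.000538) for Solyc02g071700.3. Solyc02g071700.3 and the next 2 of this run bear a zinc finger name in the deposited annotation and are counted here by their GDSL domain.

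Among the other GDSL genes, Solyc01g111960.3 had 2.33, 2.03 and 1.90 FPKM in weighted stems at 6 h, against 0.22, 0.10 and 0.29 FPKM in control stems. Its log2 difference was 1.36 ± 0.11 (adjusted p = 0.000279), the largest increase of the class. In the other direction, Solyc02g077130.2 had 0.69, 0.84 and 0.64 FPKM in weighted stems, against 3.88, 4.33 and 2.64 FPKM in control stems, a log2 difference of -1.40 ± 0.16 (adjusted p = 0.000587). The groups of both genes were separate. The most abundant GDSL gene apart from Solyc02g071700.3 was Solyc12g017460.1, with 329, 326 and 373 FPKM in weighted stems, against 230, 167 and 292 FPKM in control stems (log2 difference 0.61 ± 0.19, adjusted p = 0.0176). Without weighted replicate 3 its adjusted p was 0.0545.

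All 7 tested terpene genes of the 6 h table fell at 6 h, an enzyme that makes a precursor and enzymes that make volatiles among them. The 2 terpene genes found in the 10 day table alone were not called at 6 h. Solyc04g070980.4 had 48.2, 38.3 and 45.4 FPKM in weighted stems at 6 h, against 45.1, 48.3 and 57.2 FPKM in control stems at 6 h, with overlapping groups and a log2 difference of -0.19 ± 0.13 (adjusted p = 0.296). For Solyc03g124068.1 the log2 difference was 0.21 ± 0.11 (adjusted p = 0.18). Solyc08g005655.1, nerylneryl diphosphate synthase CPT2, joins isoprene units in cis configuration to make a diterpene precursor. It had 1.17, 2.26 and 1.85 FPKM in weighted stems, against 10.7, 11.1 and 12.1 FPKM in control stems, a log2 difference of -2.17 ± 0.16 (adjusted p = 0.000209). Solyc08g005640.4, a beta-phellandrene synthase that uses neryl diphosphate, had 6.93, 6.18 and 5.90 FPKM in weighted stems, against 14.9, 17.7 and 16.2 FPKM in control stems. Both genes were lower in every weighted library than in any control library, and the log2 difference of Solyc08g005640.4 was -1.23 ± 0.10 (adjusted p = 0.000285). The related Solyc08g005635.1 had a log2 difference of -0.89 ± 0.13 (adjusted p = 0.00157), and these neighbours by identifier may share reads.

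Solyc01g105890.3, annotated as the (R)-linalool synthase TPS5, had 1.69, 1.66 and 1 FPKM in weighted stems at 6 h, against 8.92, 4.78 and 11.9 FPKM in control stems. Its log2 difference was -1.90 ± 0.29 (adjusted p = 0.00152). Solyc01g105880.4, a camphene/tricyclene synthase, had 13.6, 15.7 and 12.1 FPKM in weighted stems, against 32.0, 24.5 and 24.1 FPKM in control stems (log2 difference -0.91 ± 0.14, adjusted p = 0.0018). In both, the groups were separate. Solyc06g084240.2, ent-copalyl diphosphate synthase and so a committed step of gibberellin synthesis, was low, with 1.28, 1.99 and 1.59 FPKM in weighted stems, against 3.84, 2.22 and 2.52 FPKM in control stems. Its log2 difference was -0.55 ± 0.18 (adjusted p = 0.0208), and the call was lost without control replicate 1 (adjusted p = 0.0564), weighted replicate 1 (adjusted p = 0.0677) or weighted replicate 3 (adjusted p = 0.0511).

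At 10 days after the load all 7 members in the 10 day table were called, 6 higher and 1 lower, against a background of 99.7% of 1114 genes chosen for differing then. Of all tested genes 51.8% were called higher and 47.9% lower. The terpene genes there were a different set from those at 6 h. Solyc04g070980.4, a terpene cyclase/mutase family member of the enzymes that fold oxidosqualene into triterpenoids or sterols, had 65.4, 61.4 and 72.7 FPKM in weighted stems, against 36.3, 22.1 and 34.4 FPKM in control stems. The groups were separate and the log2 difference was 1.11 ± 0.18 (adjusted p = 0.00282). Solyc03g124068.1, ent-kaurene synthase of the gibberellin route, had 12.6, 11.8 and 9.65 FPKM in weighted stems, against 6.77, 7.52 and 7.55 FPKM in control stems (log2 difference 0.57 ± 0.12, adjusted p = 0.00446).

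At 10 days 4 of the 5 GDSL genes tested there rose and 1 fell. Solyc10g008830.2 had 15.3, 17.2 and 6.30 FPKM in weighted stems, against 2.54, 6.76 and 4.13 FPKM in control stems. The lowest weighted library lay below the highest control library, the log2 difference was 1.31 ± 0.39 (adjusted p = 0.0112), and the adjusted p was 0.0526 without weighted replicate 1. Solyc12g017460.1 had 70.1, 78.2 and 65.3 FPKM in weighted stems, against 51.6, 20.5 and 41.2 FPKM in control stems, with separate groups and a log2 difference of 0.99 ± 0.29 (adjusted p = 0.011). Control replicate 2 was the lowest control library for this gene and for Solyc04g070980.4, which adds to both differences. Without that library 6 members of the 10 day table were called higher and 1 lower, the same counts as with all libraries. Solyc04g081755.2, at 2.87 to 3.45 FPKM in weighted stems and 1.62 to 2.12 FPKM in control stems, rose with a log2 difference of 0.54 ± 0.13 (adjusted p = 0.00541).

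The GDSL pair Solyc02g071620.3 and Solyc02g071700.3 moved in opposite directions at 10 days too, each against its own direction at 6 h. Solyc02g071620.3 had 9.04, 8.05 and 8.26 FPKM in weighted stems, against 15.6, 16.1 and 21.9 FPKM in control stems, a log2 difference of -0.98 ± 0.14 (adjusted p = 0.00253). Solyc02g071700.3 had 89.9, 94.9 and 91.8 FPKM in weighted stems, against 65.9, 57.8 and 63.1 FPKM in control stems, a log2 difference of 0.56 ± 0.08 (adjusted p = 0.00253). The groups of both were separate. The difference between the 10 day and the 6 h effect was itself called for both, -1.97 ± 0.24 (adjusted p = 0.00053) for Solyc02g071620.3 and 1.98 ± 0.19 (adjusted p = 0.00015) for Solyc02g071700.3, beside 46.8% of 5118 genes of the 6 h table. It was also called for Solyc10g008830.2, at 2.29 ± 0.49 (adjusted p = 0.00525). The 10 day calls of the 4 genes in both tables hold for the adjustment over the 10 day table: over the 6 h table the same values gave adjusted p of 0.103, 0.107, 0.219 and 0.22 for Solyc02g071620.3, Solyc02g071700.3, Solyc10g008830.2 and Solyc12g017460.1. Conversely, of 6 members of the 10 day table tested at 6 h 1 was called higher and 2 lower, beside 27.4% of 1085 genes. Those called were Solyc02g071620.3, Solyc02g071700.3 and Solyc10g008830.2, and Solyc12g017460.1 was not called there. All 4 of these genes were also in the 6 h table, so they had already been chosen for differing at 6 h. Among all genes this held for 372 of the 1146 listed at 10 days. That choice enters both values, so setting them side by side is no independent test.

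**Figure D4:**
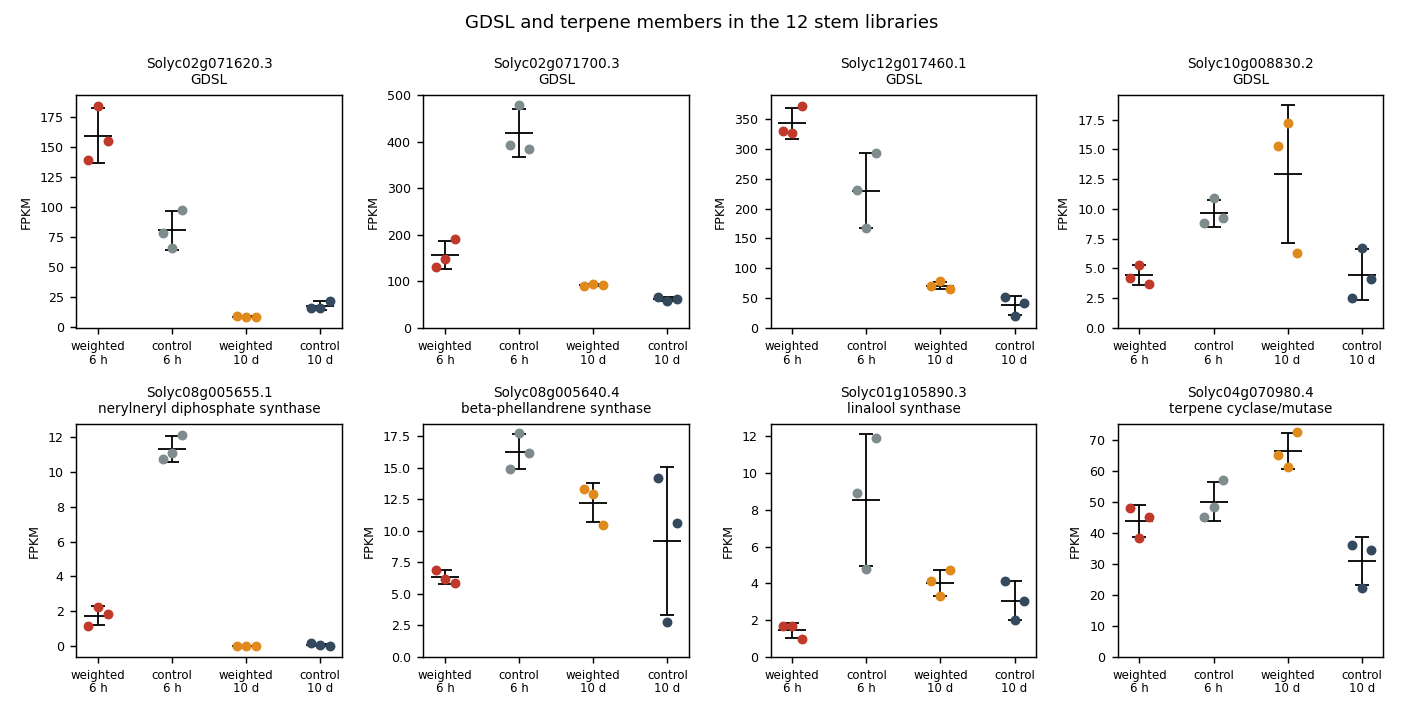
FPKM (y axis, linear) of 4 GDSL and 4 terpene genes in each library of weighted and control stems at 6 h and 10 days (x axis), with points for libraries and bars for the mean and SD of 3. Solyc02g071620.3 and Solyc02g071700.3 differ in opposite directions at both times, the first 3 terpene genes shown are lower in weighted stems at 6 h, and Solyc04g070980.4 is higher in weighted stems at 10 days.

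None of the 59 members of the 6 h table that could be tested at 10 days was called then by limma, and neither was any of the 4751 genes tested (background 0%). At an unadjusted p under 0.05 were 10 of the 59 members and 786 genes (16.5%). The direction at 10 days was higher in weighted stems for 5 of 5 terpene genes, with a median log2 difference of 0.33 beside 0.04 for all tested genes. None of these 5 reached an unadjusted p under 0.05 in limma, and in each the weighted and control libraries overlapped. Control replicate 2 was lowest in the sum over the 9 terpene genes other than Solyc04g070980.4. It had 17.4 FPKM, beside 36.0 and 29.7 FPKM in control replicates 1 and 3, and weighted libraries had 34.7 to 43.1 FPKM. The medians were 0.10 for wax genes, -0.06 for lipid transfer genes and 0.00 for GDSL genes. Without control replicate 1 they were 0.45, 0.21 and 0.32, beside 0.10 for all tested genes. Without control replicate 2 the median of all tested genes was -0.01. A miss of the threshold does not show that the genes had the same level in both groups.

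The 3 DIR1-related genes had lower mean values in weighted stems at 10 days as well, none of them called, and for 2 of the 3 the difference rested on 1 library. Solyc01g066910.3 had 0.61, 1.05 and 8.65 FPKM in weighted stems, against 104, 0.64 and 5.18 FPKM in control stems. Control replicate 1 was alone at that level and the other libraries overlapped. The log2 difference was -1.69 ± 1.53 (adjusted p = 0.628), and -0.01 (adjusted p = 0.998) without that library. For Solyc01g109390.3 the log2 difference was -1.14 ± 1.26 (adjusted p = 0.688), and 0.22 (adjusted p = 0.888) without it. The third, Solyc03g121900.1, kept its sign without that library, with -1.05 ± 0.38 (adjusted p = 0.257) in all libraries and -0.65 (adjusted p = 0.23) without it.

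The weight effect at 10 days minus that at 6 h was called for some of each kind of gene. Of 7 tested terpene genes 5 had a called rise of the difference and none a fall. Of 11 wax genes 3 had a called fall of the difference and 8 were not called. Among the 29 lipid transfer genes 3 rises and 10 falls were called, all 3 type 2 genes among the falls, and among 25 GDSL genes 8 rises and 6 falls. The background was 25.1% of genes called upward and 21.7% downward. Over the table for 10 days the difference was called as a rise in 4 of 7 members and as a fall in 1, beside 49.1% of 1135 genes. The genes of the 6 h table had been chosen for their difference at 6 h. Those of the 10 day table had been chosen for theirs at 10 days. Both choices enter the contrast.

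Between the times the control stems themselves differed widely. In control stems at 10 days 17 of 67 tested members were called higher than in control stems at 6 h and 38 lower, beside 27.4% higher and 38.5% lower among 4979 genes (65.9% called in all). Of 23 GDSL genes 4 were higher and 16 lower, of 7 terpene genes 5 were lower and none higher, and of 27 lipid transfer genes 9 were higher and 13 lower. The median log2 difference was -1.05 for the members and -0.18 for all tested genes. With median-ratio scaling the median of all genes moved to -0.02, and the called genes split into 1642 higher and 1681 lower, against 1364 higher and 1918 lower as deposited. The members then split into 17 higher and 36 lower. This comparison and the weight effect at 6 h share the control libraries at 6 h, so their values are given side by side and not compared.

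The lipid transfer genes held the extremes of this difference. Solyc06g069070.1 had 1585, 1215 and 1283 FPKM in control stems at 10 days, against 37.8, 44.2 and 27.9 FPKM in control stems at 6 h, a log2 difference of 5.19 ± 0.19 (adjusted p = 1.12e-05). Solyc10g075070.3, a named non-specific lipid transfer protein, had 767, 916 and 699 FPKM in control stems at 10 days, against 23.0, 36.8 and 44.4 FPKM in control stems at 6 h (log2 difference 4.52 ± 0.25, adjusted p = 2.95e-05). All 3 type 2 genes were called higher at 10 days. The hydrophobic seed class went the other way, with 6 of 8 called lower and none higher. Solyc08g005960.2 had 0.97, 0.35 and 0.25 FPKM in control stems at 10 days, against 132, 63.3 and 185 FPKM in control stems at 6 h. Its log2 difference was -6.29 ± 0.40 (adjusted p = 4.82e-05). Solyc08g078940.1, which bears the name extensin beside the hydrophobic seed domain, was listed at 3.97, 0 and 0 FPKM in control stems at 10 days, against 126, 218 and 89.2 FPKM in control stems at 6 h. It was listed at 0 in all 3 weighted libraries at 10 days. With no counts, a value of 0 gives no limit on its level.

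ECERIFERUM 3-like and ECERIFERUM 1-like differed in their pattern over the times. Solyc03g117800.4 had 41.1, 41.5 and 25.1 FPKM in weighted stems at 10 days and 19.3, 31.6 and 15.2 FPKM in control stems at 10 days, and the groups overlapped. In control stems it was 4.17 ± 0.26 higher at 10 days than at 6 h on the log2 scale (adjusted p = 4.26e-05). Its weight effect at 10 days was 0.71 ± 0.31 (adjusted p = 0.323). Solyc01g088400.4 had 3.17, 2.73 and 2.05 FPKM in weighted stems at 10 days, against 9.69, 1.74 and 1.56 FPKM in control stems, again with control replicate 1 apart. Among the 3-ketoacyl-CoA synthases, Solyc09g083050.3 was higher in control stems at 10 days than at 6 h (2.24 ± 0.19, adjusted p = 0.000124), and Solyc11g072980.1 was lower (-2.14 ± 0.12, adjusted p = 2.95e-05), listed at or below 0.11 FPKM in all 6 libraries at 10 days.

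Of the terpene genes, Solyc08g005655.1 had 0.17, 0.05 and 0.02 FPKM in control stems at 10 days, against 10.7, 11.1 and 12.1 FPKM in control stems at 6 h (log2 difference -3.51 ± 0.12, adjusted p = 1.08e-05). Solyc01g105880.4 was lower by -2.80 ± 0.19 (adjusted p = 6.15e-05). In the 10 day table, where 73.1% of 1121 genes were called, Solyc03g124068.1 was higher in control stems at 10 days (0.91 ± 0.10, adjusted p = 0.000143) and Solyc04g070980.4 lower (-0.70 ± 0.20, adjusted p = 0.0144). The 2 steps of the gibberellin route differed in sign, with Solyc06g084240.2 at -1.45 ± 0.19 (adjusted p = 0.000691).

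Other genes of the same pathways were counted from 6 lists of annotation words. The plastid MEP route supplies isoprene units to volatile terpenes. It had 6 genes in the 6 h table and all 6 fell at 6 h, with a median log2 difference of -0.47. Among all tested genes 51.4% were called lower and the median was -0.27. The 6 MEP genes summed to 245 to 262 FPKM in weighted stems, against 341 to 381 FPKM in control stems. Solyc11g010850.2, 1-deoxy-D-xylulose-5-phosphate synthase, fell most (-0.92 ± 0.16, adjusted p = 0.00247), followed by Solyc01g109300.3, annotated as ISPH (-0.64 ± 0.09, adjusted p = 0.00133). The mevalonate and sterol list had 2 genes that rose and 2 that fell, of which Solyc03g032020.4, HMG-CoA reductase, rose (0.51 ± 0.12, adjusted p = 0.00608) and Solyc02g081330.4, named phytoene synthase and so of the carotenoid route rather than of sterols, fell (-0.67 ± 0.12, adjusted p = 0.00273). Prenyl diphosphate synthases and related prenyl enzymes split into 3 that rose and 3 that fell. In the 10 day table the mevalonate and sterol list had 3 genes, 1 called higher and 2 lower. Of all tested genes there 51.8% were called higher and 47.9% lower. The median log2 difference of the 3 was -0.64, beside 0.35 for all tested genes. HMG-CoA reductase was lower there, at 16.4 to 19.2 FPKM in weighted stems, against 25.4 to 34.3 FPKM in control stems.

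Outside the members, the cuticle lists were mixed at 6 h. Of 6 tested genes for export and regulation, all ABC transporters of the G family, 3 rose and 3 fell. Solyc03g113690.1, ABC transporter G family member 23, had the largest difference (2.501 ± 0.205, adjusted p = 0.00026). Of 2 cutin monomer genes Solyc01g094750.4, cytochrome P450 86A8-like and so a fatty acid hydroxylase, rose (0.64 ± 0.20, adjusted p = 0.0158) and Solyc08g076470.4, a plastid glycerol-3-phosphate acyltransferase that serves membrane lipids rather than cutin, fell (-0.56 ± 0.09, adjusted p = 0.00164). Of 3 tested genes of wax elongation and reduction 1 rose and 2 fell. The one with the largest difference, Solyc10g086500.1, is named DET2 in the deposited annotation, a steroid reductase of brassinosteroid synthesis (-0.82 ± 0.17, adjusted p = 0.00403).

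Lists of marker words for other stem cell types were counted by direction at 6 h. Their genes in the 6 h table had already been chosen for differing then, so that they differed was fixed by that choice. In bulk stem RNA fewer cells of a type and less RNA per cell cannot be told apart. Genes caught by epidermal words, for the layer that bears the cuticle, were 4 of 5 higher and 1 lower. Their summed level was 219 to 238 FPKM in weighted stems, against 134 to 159 FPKM in control stems. By name they were the homeobox-leucine zipper proteins anthocyaninless 2 and GLABRA 2, and the rest were named uncharacterized protein. Whether they mark the epidermis of these stems was not tested. Photosynthetic genes were 36 of 37 lower, summing to 11364 to 12924 FPKM in weighted stems, against 23138 to 31794 FPKM in control stems. Xylem words gave 1 higher and 6 lower of 7, summing to 75.8 to 109 FPKM in weighted stems and 117 to 172 FPKM in control stems. Phloem words gave 5 higher and 5 lower, and suberin words 4 higher and 4 lower. By name the xylem words caught only laccases and the suberin words only CASP-like proteins. The phloem words caught mainly SWEET sugar transporters and F-box proteins, so these counts describe those families. The trichome words caught 25 tested genes, mainly trichome birefringence-like proteins, which acetylate wall polymers in many cells and mark no gland, with 11 higher and 14 lower. Markers of glands other than the terpene genes are therefore not analysed here. The part of these cell types in the members' differences was not tested.

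At 10 days the same words gave few genes in the 10 day table. Of 7 photosynthetic genes all were lower, of 8 phloem genes 2 were higher and 6 lower, and the xylem and suberin words gave 1 higher gene each. Epidermal words gave none there, and their sum over the 6 h table was 118 to 126 FPKM in weighted stems, against 74.9 to 137 FPKM in control stems, so the groups overlapped.

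A few members were below the filter. At 6 h 6 of the 76 members in the 6 h table had fewer than 3 libraries of that comparison at 1 FPKM. Among them Solyc03g091000.1, with the hydrophobic seed domain, was listed at 0, 0.32 and 0 FPKM in weighted stems, against 2.59, 0.99 and 3.91 FPKM in control stems, and at 0 in all 6 libraries at 10 days. Solyc01g105920.3, a myrcene/limonene synthase, stayed at or below 0.63 FPKM in all 12 libraries. The GDSL gene Solyc01g079160.4 was below 1 FPKM in all libraries at 6 h and had 7.68, 7.41 and 6.72 FPKM in weighted stems at 10 days, against 5.39, 8.46 and 6.60 FPKM in control stems. Its control level at 10 days was 2.16 ± 0.18 above that at 6 h on the log2 scale (adjusted p = 0.000119).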

How the data were processed

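Per the labels' protocols, RNA was taken from stems with Trizol, and reads were aligned by HISAT to the genome and by Bowtie2 to reference genes; software versions, build and annotation were not named. The FPKM values, log2 ratios and Q values are those deposited by the authors, the last 2 used here only as a check. Legible Q values were under 0.05 in 3086 of 3086 cases (6 h table) and 908 of 910 (10 day table). The 6 h table had tabs and decimal points exchanged, which a script restored, and 91 of its 5346 genes, among them 5 members, had their digits regrouped by within-group spread and the authors' ratios. Ratios of mean FPKM correlated with the authors' at 0.9998 (5235 genes, 6 h) and 0.9997 (1145 genes, 10 days). Of 4464 values present in both, 71 differed by over 0.005 FPKM, at most 0.0145 on the log2 scale.

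Whole multiples of a gene's lowest value made up 12.4% (6 h) and 8.08% (10 days) of its low values, so reads could not be recovered, depth stays unknown and counting error cannot be stated. Values were fitted as log2(FPKM + 1) with limma 3.58.1 (trend, two-sided) in R 4.3.3, in the 6 libraries compared or, for the difference of effects, in all 12. The fit was checked on simulated data. The labels speak of biological replicates without naming plants or pools. An exact permutation test of 3 against 3 cannot go below 0.1, so none was run. The deposited identifiers matched 0 entries of the reference gene table, so no positions or sequences are given.

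The members and lists were chosen with earlier results of these data known. The genes named are, per kind of member, the 3 with the highest mean, the 5 with the largest called difference per comparison with at least 2 FPKM in the higher group, those in both tables and those called at 10 days. For the other lists they are the 2 largest called differences. Others, such as the rest of a small class, were named after their values were seen. Alternatives were pseudocounts of 0.1 and 0.5, no filter, a filter at 5 FPKM, 3 scalings, array weights, the replicate number as a block, all 12 libraries in the fit, each library left out, and the regrouped genes left out. Plots were drawn with matplotlib 3.10.9 under Python 3.11.15, and tables with pandas 2.3.3 and numpy 2.4.6.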

Additional observations from a re-analysis of the deposited data

Results flagged for a closer look

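The members below were singled out because the weight effect at 10 days differed from that at 6 h by the test of the difference itself (10 day effect minus 6 h effect, log2(FPKM + 1), limma over all 12 libraries). They are the 5 largest called differences per kind of gene and table. Each table's genes had been chosen for differing at its own time, and that choice enters the contrast.

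Among terpene genes the difference was 2.23 for the linalool synthase Solyc01g105890.3, 2.09 for the nerylneryl diphosphate synthase Solyc08g005655.1, and 1.83 and 1.33 for the beta-phellandrene synthases Solyc08g005640.4 and Solyc08g005635.1. It was 1.15 for the camphene/tricyclene synthase Solyc01g105880.4 and, in the 10 day table, 1.29 for the terpene cyclase/mutase Solyc04g070980.4. All 6 are positive, but the genes of the 6 h table had been chosen for differing then, when each of them fell. Solyc04g070980.4 had been chosen for differing at 10 days, when it rose, so the choice enters these signs. Solyc08g005655.1 was listed at or below 0.04 FPKM in weighted stems at 10 days and at or below 0.17 FPKM in control stems at 10 days, so its difference largely repeats the 6 h effect with its sign turned.

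Among wax genes it was -1.86 for ECERIFERUM 1-like Solyc01g088400.4. That call ended with a pseudocount of 0.1 (adjusted p = 0.0517) and with any 1 of 7 libraries left out (adjusted p of 0.0537 to 0.067). It was -1.50 and -0.74 for the 3-ketoacyl-CoA synthases Solyc03g078330.1 and Solyc11g072980.1. The last 2 were listed at or below 0.11 FPKM in all libraries at 10 days, so their difference repeats the 6 h effect with its sign turned.

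Among lipid transfer genes it was 2.25 for Solyc03g083998.1, -1.63 for Solyc08g005960.2 and -1.52 for Solyc08g079230.1, all with the hydrophobic seed domain and under 1 FPKM at 10 days. For Solyc08g005960.2 it was -1.27 (adjusted p = 0.123) with a pseudocount of 0.1, which ended the call. The call of Solyc08g079230.1 ended without control replicate 1 at 6 h (adjusted p = 0.055) or weighted replicate 2 at 10 days (adjusted p = 0.0507). For the type 2 genes it was -1.45 in Solyc06g069070.1 and -1.33 in Solyc03g119210.1.

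Among GDSL genes it was 2.29 for Solyc10g008830.2, 2.02 for Solyc02g077130.2, 1.98 for Solyc02g071700.3, -1.97 for Solyc02g071620.3 and -1.46 for Solyc01g111960.3, which was listed at or below 0.29 FPKM in all libraries at 10 days. In the 10 day table Solyc10g008830.2, Solyc02g071700.3 and Solyc02g071620.3 had the same values, and Solyc04g081755.2 had 0.74.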

How the results depend on the processing

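Under the alternatives tried, the counts of members called at 6 h and at 10 days in their own tables stayed within 1.5 times the values given, and the difference of Solyc08g074480.1 at 6 h turned to 0.16 with quantile normalization. The 10 day weight effect over the 6 h table, with 0 calls, gave 4 calls with median ratios, 8 with quantiles, 8 with array weights and 0 to 6 with a library left out, 6 of them without control replicate 1. There Solyc01g109390.3 ranged from -1.996 to 0.223 with a library left out. The 6 h effect over the 10 day table gave 297 called genes, 451 with equal totals and 86 to 344 with a library left out. Of the members, 3 were then called higher with equal totals, 2 with quantiles, 2 with array weights and 1 to 2 with a library left out. For the control comparison in the 10 day table, 2 members were called higher, but 1 with a filter at 5 FPKM, 1 with equal totals and 1 with quantiles. The difference of effects in the 6 h table gave 2395 called genes and 3780 with array weights, with 30 members called higher. Members called lower there numbered 11 to 17 with a library left out, against 19. Array weights did not reach their convergence tolerance in some fits.

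Scaling moved the direction of calls in the 10 day table, where the weight effect gave 577 higher and 534 lower as deposited and 578 higher and 167 lower with equal totals. For the control comparison in that table it was 468 higher and 352 lower as deposited, 286 and 550 with equal totals, and 393 and 473 with quantiles. For the 6 h effect in that table it was 150 higher and 147 lower as deposited, and 362 and 89 with equal totals.

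Deviations from the group means were correlated between same-numbered libraries of weighted and control stems. The values were -0.37, -0.29 and -0.04 at 6 h over 5028 genes. At 10 days they were of mixed sign, with -0.16, 0.32 and 0.17 over 1114 genes. Differently numbered libraries ranged from -0.37 (10 days) to 0.33 (6 h). With 3 libraries per group, these values cannot decide whether equal numbers mark anything shared. With the replicate number as a block 4555 of the 4995 calls at 6 h were made, 87 against 297 for the 6 h effect over the 10 day table, and 32 members rose and 35 fell at 6 h. Unknown depth limits the lowest values, and near-identical copies may share reads.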
